A study of Mus musculus with 2 samples.

Results

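Genes that let macrophages sense microbes through Toll-like receptors, or hold that signal back, were followed in single macrophages of the mouse small intestine. The set comprised 10 of the 27998 genes in both count matrices: Tlr2, Tlr4, Tlr7, Tlr13, Cd14, Ly96, Myd88, Irak2, Irak3 and Nod2. They were listed by name as receptors, co-receptors, adaptors and kinases of this pathway. Levels were summed over every cell that had 200 or more detected genes and no more than 10% of its unique molecular identifiers (UMIs, each standing for 1 captured transcript end) in mitochondrial genes.

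Cells were sorted from the small intestines of wild-type mice (C57BL/6J, male, from the breeder Janvier) and of Ccr2 knockout mice (CCR2-/-, JAX strain 004999, bred in-house). For each genotype 3 to 4 intestines were pooled, and live CD45+ cells positive for CD11b, MHCII and CD64 were taken after exclusion of lymphocyte, eosinophil, neutrophil and Ly6C markers. The labels name no treatment and no age, and for the knockout they give no sex. Each genotype was 1 library, so breeder and genotype cannot be told apart, no comparison below has a replicate or a test, and every interval covers counting error only. The wild-type barcodes carry 2 suffixes, read here as lanes 1 and 2 of that library, and the spread between them does not stand for replicates.

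Toll-like receptors bind conserved microbial molecules, at the cell surface (Tlr2, Tlr4) or inside endosomes (Tlr7, Tlr13), and pass the signal through the adaptor Myd88 and kinases of the IRAK family to NF-κB. Intestinal macrophages live beside a dense microbiota and are known for a muted cytokine response to bacterial products. Monocytes that enter the tissue with the help of the chemokine receptor Ccr2 lose that receptor as they mature, so Ccr2 marks the recent arrivals.

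After filtering, 3016 wild-type cells (20678108 UMIs, median 6129 per cell) and 2612 knockout cells (7265386 UMIs, median 2439) remained. Lanes 1 and 2 of the wild type held 2109 and 907 of these cells and shared 5 barcode sequences, and the wild type and the knockout shared 6. Ccr2 itself (chromosome 9, 124101950 to 124113557, plus strand) had 347 counts per 1000000 UMIs (CPM) in lane 1, 293 CPM in lane 2 and 6.88 CPM in the knockout, so the libraries matched their labels. All 8 macrophage markers were detected in both libraries, with a summed level of 14277 CPM in wild type and 10716 CPM in the knockout. Cells with at least 3 markers of a lymphoid, epithelial, fibroblast or endothelial list were 2.45% of the cells in wild type and 2.87% in the knockout. The libraries also differed in 12 immediate-early genes (such as Fos and Egr1), which summed to 6886 CPM in wild type and 25302 CPM in the knockout. Summed monocyte markers, Ccr2 among them, had 574 and 128 CPM. Summed fibroblast markers had 26.1 and 232 CPM and endothelial markers 52.2 and 167 CPM.

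Tlr2, Myd88 and Tlr13 each hold a motif of a known immune transcription factor just before their RefSeq start and are shown for that reason. Promoters were matched by symbol in RefSeq (GRCm38.p6) for 6 of the 10 genes, and the 250 bases before the start were searched on both strands. The motifs were GAGGAA (the box bound by PU.1, a macrophage-lineage factor), TGANTCA (AP-1), GAAA repeated after any 2 bases (bound by interferon regulatory factors) and the kappa B consensus of NF-κB. Printed are the bases of each window that lie outside the GENCODE exons of the gene, each line running 5′ to 3′ on the gene's strand, with the matched letters in capitals. The Tlr2 line covers chr3:83841768-83841858 (minus strand), where capitals mark overlapping kappa B matches, a motif found in 7.25% of all 32851 promoter entries. This consensus was chosen after the sequences were seen, so its match in Tlr2 is not read as a result. The Myd88 line covers chr9:119340042-119340268 (minus strand), where capitals mark the GAAA repeat, found in 2.98% of entries. A longer GENCODE transcript of Myd88 starts further upstream, at 119341411, so this window lies before the RefSeq start but in an intron of that transcript. The Tlr13 line covers chrX:106143025-106143203 (plus strand), where capitals mark GAGGAA, found in 23.3% of entries. TGANTCA, found in 6.75% of entries, did not occur in the matched windows.
Tlr2: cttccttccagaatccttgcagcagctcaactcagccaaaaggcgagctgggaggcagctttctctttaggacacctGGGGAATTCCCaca
Myd88: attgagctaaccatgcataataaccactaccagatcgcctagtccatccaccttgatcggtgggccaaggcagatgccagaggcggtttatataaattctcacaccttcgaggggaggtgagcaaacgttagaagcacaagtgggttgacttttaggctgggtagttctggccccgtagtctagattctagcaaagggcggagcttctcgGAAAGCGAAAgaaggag
Tlr13: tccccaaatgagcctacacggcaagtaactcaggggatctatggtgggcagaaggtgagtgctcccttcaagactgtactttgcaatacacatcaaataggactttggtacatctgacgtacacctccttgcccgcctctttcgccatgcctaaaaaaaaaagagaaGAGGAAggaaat
These matches describe letters in a window and not bound sites. Coordinates of genes below are from GENCODE M21 (GRCm38), where all 10 are annotated as protein-coding.

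In the knockout Tlr2 was the one gene of the set with a level at least 2-fold above wild type, Ly96 was the one gene clearly below it, and the others lay between. Of the 10 genes, 8 had a mean level of the libraries of at least 10 CPM, while Irak3 and Nod2 were rarer. Among those 8, 1 was at least 2-fold higher in the knockout, where 9.04% of 7401 genes past the same minimum were, and 0 were at least 2-fold lower, against 3.12% of genes. Knockout against wild type, their median log2 ratio was 0.30 and that of all genes 0.18, on a scale of log2(CPM + 1). The 95% Poisson intervals of the libraries lay apart for 5 of the 8 upward (42.4% of all genes) and 1 of the 8 downward (23.0%), so separation of intervals was common in these deep sums and does not single out the set. Between the wild-type lanes 0 of the 8 differed 2-fold, where 0.0428% of 7014 genes were at least 2-fold higher and 0.684% lower in lane 2. Lane intervals lay apart for 1 of the 8 upward (Cd14), against 8.65% of genes, and for 0 of the 8 downward, against 22.2%.

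**Figure D1:**
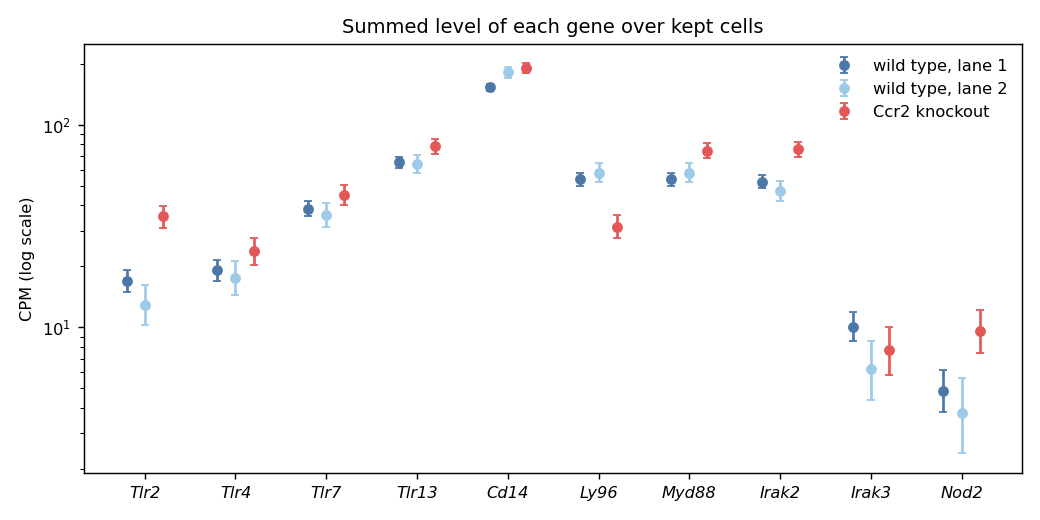
CPM of each gene on a log scale, summed over kept cells of wild-type lane 1, wild-type lane 2 and the Ccr2 knockout, with 95% Poisson intervals as bars. Tlr2 is higher and Ly96 lower in the knockout than in both lanes.

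The surface receptor for bacterial lipoproteins, Tlr2 (chromosome 3, 83836272 to 83841767, minus strand), had 17.0 CPM in lane 1, 12.9 CPM in lane 2 and 35.2 CPM in the knockout (interval 31.1 to 39.8). Both lanes were below the knockout interval. The log2 ratio to wild type was 1.11 (counting interval 0.91 to 1.40), with 1.01 against lane 1 and 1.38 against lane 2, while the lanes differed by -0.37. Median-of-ratios scaling, which sets the median of all genes past the minimum to 0, lowered it to 0.92, under the 2-fold line.

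The lipopolysaccharide receptor complex did not move as a unit. Tlr4 (chromosome 4, 66827584 to 66930284, plus strand), its signalling chain, had 19.1 CPM in lane 1, 17.5 CPM in lane 2 and 23.7 CPM in the knockout. Its intervals overlapped between genotypes (16.8 to 20.6 in wild type and 20.3 to 27.5 in the knockout), and the log2 ratio of 0.33 became -0.33 in cells of 2000 to 4000 UMIs. Ly96 (chromosome 1, 16688051 to 16709611, plus strand) encodes MD-2, the subunit that binds lipopolysaccharide on Tlr4. It had 53.7 CPM in lane 1, 58.0 CPM in lane 2 and 31.4 CPM in the knockout (interval 27.4 to 35.7). Here the knockout was below both lanes, with a log2 ratio of -0.79 (-1.02 to -0.60), and the direction was the same in all 17 alternative settings, from -0.98 to -0.25.

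Cd14 (chromosome 18, 36725067 to 36726798, minus strand), the co-receptor that hands lipopolysaccharide to MD-2, was the most frequent transcript of the set. It had 153 CPM in lane 1, 181 CPM in lane 2 and 190 CPM in the knockout. Lane 2 lay within reach of the knockout, since its interval of 170 to 192 overlapped that of 180 to 200. The log2 ratio of 0.24 was 0.31 against lane 1 and 0.07 against lane 2, and the lanes thus differed about as much as the genotypes. In cells of 2000 to 4000 UMIs the ratio of Cd14 was 0.69, with 185 CPM in the knockout and 114 CPM in wild type. Fibroblasts and endothelial cells can express these receptors, and without the other-lineage cells the ratios were 0.25 for Cd14, 0.34 for Tlr4 and 1.09 for Tlr2.

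The endosomal receptors differed little. Tlr7 (chromosome X, 167304929 to 167330558, minus strand), which recognises single-stranded RNA, had 38.6 CPM in lane 1, 35.9 CPM in lane 2 and 45.0 CPM in the knockout, a log2 ratio of 0.25 with overlapping intervals. Tlr13 (chromosome X, 106143204 to 106160493, plus strand), which recognises bacterial ribosomal RNA, had 65.1 CPM in lane 1, 64.2 CPM in lane 2 and 78.3 CPM in the knockout. Its intervals lay apart (61.4 to 68.4 and 72.0 to 85.0), but the log2 ratio of 0.27 turned to -0.17 in cells of 2000 to 4000 UMIs. With median-of-ratios scaling the values for Tlr7 and Tlr13 were 0.060 and 0.081. Against wild-type cells with 0 Ccr2 UMIs alone they were 0.057 and 0.038, whereas Tlr2 and Ly96 then had 1.34 and -0.93.

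Among the signalling genes, the adaptor Myd88 (chromosome 9, 119335934 to 119341411, minus strand) had 53.7 CPM in lane 1, 58.0 CPM in lane 2 and 74.5 CPM in the knockout. By coincidence its wild-type UMI numbers per lane equalled those of Ly96, and the genes split differently over the cell classes described further on. The log2 ratio of Myd88 was 0.43 (0.29 to 0.59). Myd88 ends 4.76 Mb before the deleted Ccr2 on the same chromosome, and the part of that linkage in the difference was not tested. Irak2 (chromosome 6, 113638467 to 113695026, plus strand), a kinase that sustains signalling after Myd88, had 52.3 CPM in lane 1, 47.2 CPM in lane 2 and 75.6 CPM in the knockout, a log2 ratio of 0.56 (0.42 to 0.72). For both genes the knockout interval lay above those of both lanes.

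Irak3 (chromosome 10, 120141648 to 120202130, minus strand), which encodes IRAK-M, an inhibitor of the pathway, was rare. It had 10.1 CPM in lane 1, 6.22 CPM in lane 2 and 7.71 CPM in the knockout, which stood between the lanes. Nod2 (chromosome 8, 88647315 to 88688474, plus strand), a cytosolic sensor of bacterial cell-wall fragments, had 4.87 CPM in lane 1, 3.77 CPM in lane 2 and 9.63 CPM in the knockout, on 71, 23 and 70 UMIs. The log2 ratio was 0.94 (0.62 to 1.55) and the direction was the same in all 17 alternatives, from 0.040 to 1.16, the lowest in cells with high immediate-early genes. No difference of Irak3 was detectable at this depth, with a ratio of -0.19 (-0.67 to 0.22).

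**Figure D2:**
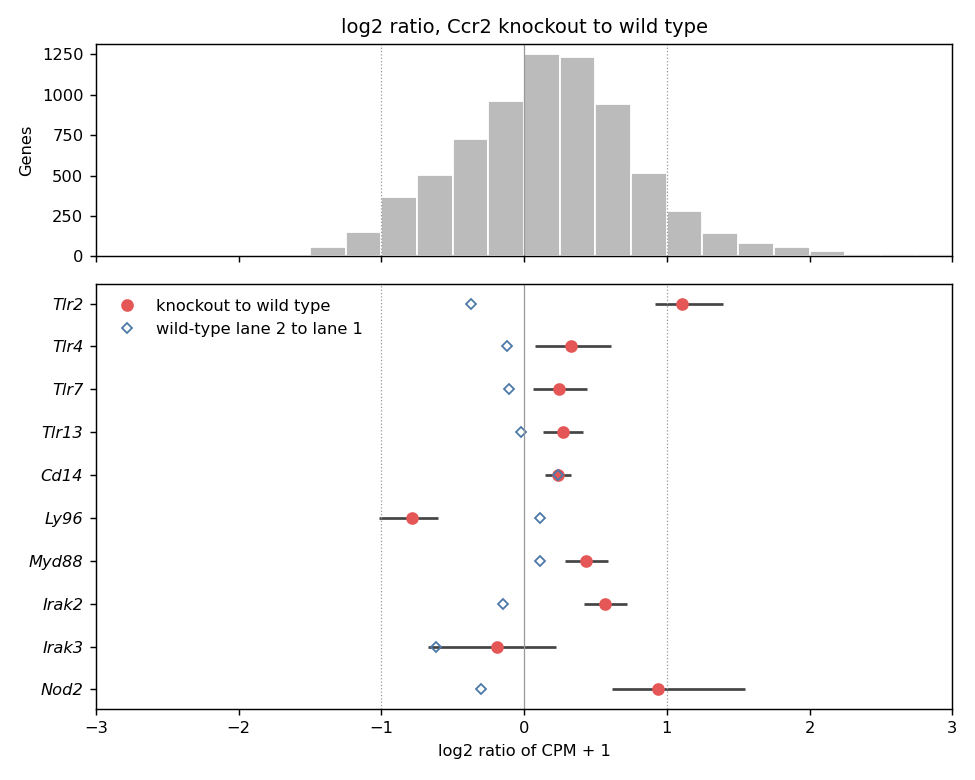
Top, number of genes per log2 ratio bin of 0.25 for all genes with a mean of at least 10 CPM. Bottom, log2 ratio of CPM + 1 of knockout to wild type for each of the 10 genes (red, with the 95% counting interval as a line) and of wild-type lane 2 to lane 1 (open diamonds). Dotted lines mark a 2-fold difference, which Tlr2 alone passes.

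Because wild-type cells were deeper, shares of cells with a UMI were compared after each cell was thinned at random to 1000 UMIs, which left out 196 knockout cells and 1 wild-type cell. At this depth 37.3% of wild-type cells and 42.9% of knockout cells held a UMI of any of the 10 genes, and 6.57% and 9.19% held 2 or more of them. For 8 of the 10 genes the knockout had the higher share, and for 0 of 10 without thinning. The same count was not made over all genes, whose median log2 ratio of levels was itself above 0 (0.18). The 8 are therefore not read as a feature of the set, and they include Tlr4 and Nod2, whose shares are limited by the background below. A Tlr2 UMI was found in 1.33% of cells in lane 1, 0.883% in lane 2 and 3.56% in the knockout (Clopper-Pearson interval 2.86% to 4.38%). Unthinned, the Tlr2 shares were 8.92% in wild type and 8.08% in the knockout. Irak2 was found in 4.84%, 5.08% and 8.11% of cells of lane 1, lane 2 and the knockout, and Myd88 in 5.45%, 5.52% and 7.45%. The Ly96 shares were 5.50%, 5.30% and 2.77%, the last of which was not above the background given next. The intervals of Tlr2, Irak2 and Myd88 lay apart between wild type and knockout, and those of Tlr4, Tlr7, Tlr13, Cd14 and Irak3 overlapped. For Myd88 the gap was narrow, from 6.35% in wild type to 6.43% in the knockout, and the lane 1 interval reached 6.51%. At 500 UMIs the Myd88 intervals lay apart as well, but at 2000 UMIs they overlapped (9.43% to 11.7% and 11.5% to 14.9%).

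**Figure D3:**
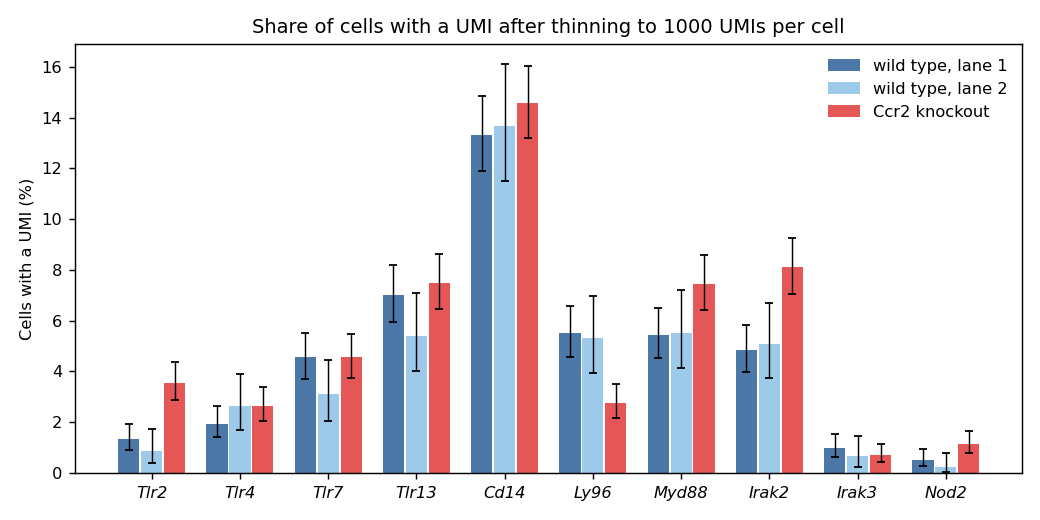
Percent of cells with at least 1 UMI of each gene after thinning to 1000 UMIs, in wild-type lane 1, wild-type lane 2 and the Ccr2 knockout, with 95% Clopper-Pearson intervals as bars. The knockout is above both lanes for Tlr2 and Irak2.

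As a background for free RNA, cells with lymphoid markers and a low macrophage-marker share were thinned alike. There were 26 in wild type (median 7878 UMIs) and 32 in the knockout (median 2280 UMIs). Tlr2, Tlr13, Cd14, Irak2 and Irak3 UMIs were found in 0 of 26 and 0 of 32 of them, which allows shares of up to 11.5% and 9.38% (3 counts of the total). Among these 5 genes the share over all kept cells was above those limits only for Cd14 (13.4% in wild type and 14.6% in the knockout). Ly96, Tlr4, Tlr7 and Nod2 each had a UMI in 3.13% of the knockout lymphoid-marker cells and Myd88 in 6.25%, on 1 or 2 cells. The thinned knockout shares of Ly96, Tlr4 and Nod2 were not above those values, so these shares are not read as expression or as a difference. The interval of 1 in 32 cells is 0.0791% to 16.2%, too wide to say how large the background is. The Tlr2 and Irak2 shares were likewise not above their own limits. B cells can express some of these genes themselves, among them Tlr7 and Myd88, so a UMI in lymphoid-marker cells need not be free RNA.

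Levels were then set beside the immediate-early genes, since these differed so much. At or below the median immediate-early share of all kept cells lay 84.7% of wild-type cells but 9.88% of knockout cells. Cd14 had 149 CPM in wild-type cells with a low share and 250 CPM in those with a high share, and 99.8 and 201 CPM in the knockout. Irak2 had 48.8 and 65.5 CPM in wild type and 46.1 and 79.2 CPM in the knockout. Both genes were thus higher beside high immediate-early genes within each library, with intervals apart. Tlr2, Tlr4, Tlr7, Tlr13, Myd88 and Nod2 were also higher at a high share in both libraries, but their intervals were not apart in both. Ly96 was lower there in wild type, with 57.0 CPM at a low share and 39.1 CPM at a high share, and had 36.2 and 30.8 CPM in the knockout.

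Within each side of that median the values differed from those over all cells, and Cd14 in the knockout was below wild type on both sides. This split does not match the share between the libraries, and how far the share still differed within each side was not measured. In cells with a high share the knockout stood against wild type at a log2 ratio of 0.91 for Tlr2, 0.27 for Irak2, 0.26 for Myd88, 0.16 for Nod2, -0.34 for Ly96 and -0.31 for Cd14. In cells with a low share it was -0.080 for Irak2, -0.10 for Myd88, -0.64 for Ly96 and -0.58 for Cd14. Tlr2 was there on the other side, with 6.24 CPM in the knockout (2.02 to 14.6, on 5 UMIs) and 15.2 CPM in wild type. Only 258 knockout cells fell there, of which 15.5% carried other-lineage markers and 64.3% passed a gate on the macrophage-marker share. With that gate the ratio in low-share cells was -0.55 for Tlr2, -0.25 for Ly96 and -0.10 for Cd14. It was 0.34 for Irak2 and 0.42 for Myd88, so their negative sign was not kept among the gated cells. The part of the immediate-early state in the differences of Tlr2, Cd14, Irak2, Myd88 and Ly96 was not tested.

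**Figure D4:**
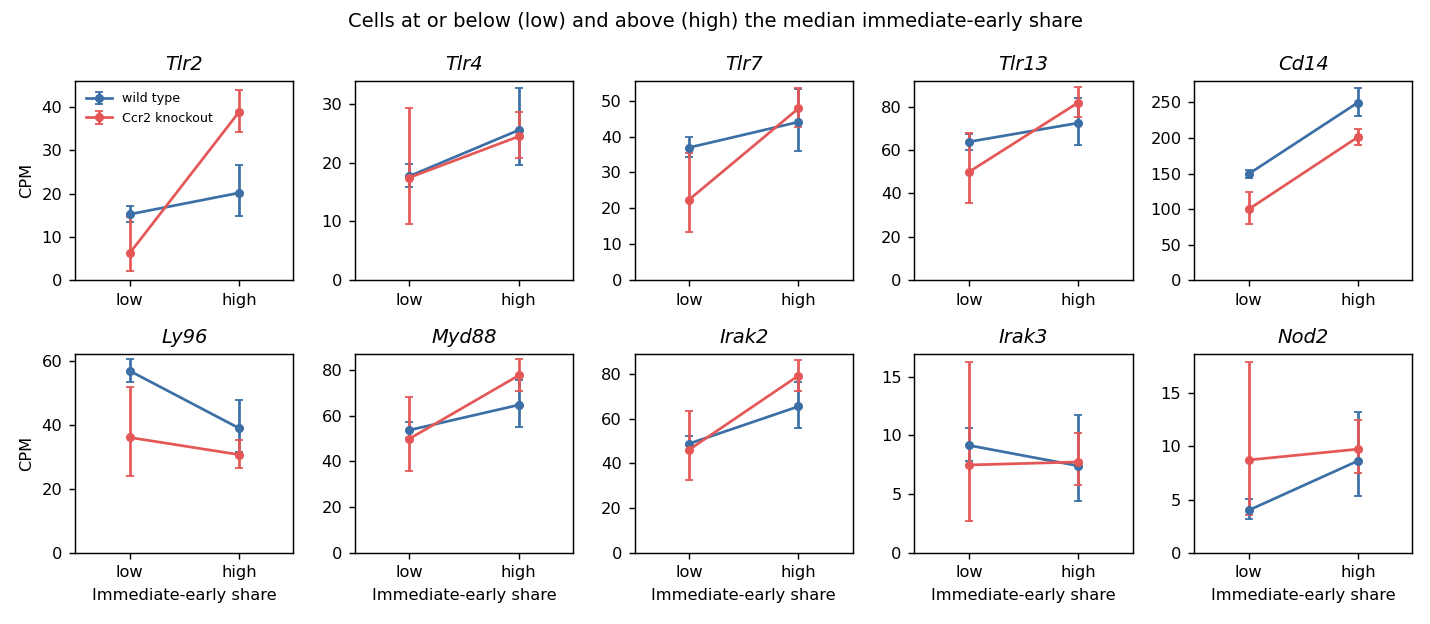
CPM of each gene in cells at or below (low) and above (high) the median immediate-early share of UMIs, for wild type (blue) and the Ccr2 knockout (red), with 95% Poisson intervals as bars. Cd14 and Irak2 are higher at a high share in both libraries with intervals apart, and Tlr2 in the knockout goes from 6.24 to 38.8 CPM.

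Within wild type, cells were divided by their Ccr2 UMIs to set the genes along the level of this receptor. Classes of 0, 1, 2 to 3, and 4 or more Ccr2 UMIs held 1692, 322, 329 and 673 cells, with medians of 5303, 5522, 6000 and 9098 UMIs, so the highest class was also the deepest. The monocyte marker Plac8 went from 96.2 CPM at 0 to 447 CPM at 4 or more, and the macrophage marker C1qa from 5775 to 3944 CPM. The endosomal receptors were lower in cells rich in Ccr2, whereas Cd14 and Tlr2 were higher. None of the 8 genes past the minimum differed 2-fold between the highest class and 0, where 1.09% of 7001 genes were at least 2-fold higher and 3.16% lower. Intervals of the end classes lay apart upward for 2 of the 8 (11.2% of genes) and downward for 3 of the 8 (21.5%).

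Tlr13 had 76.3, 66.2, 62.1 and 47.6 CPM from class 0 to class 4 or more and was the one gene of the set that was lower at every step, although neither lane alone kept that order. The log2 ratio of the highest class to 0 was -0.67 (-0.88 to -0.49), with -0.65 in lane 1 and -0.72 in lane 2. Tlr7 had 43.2, 37.0, 37.4 and 29.7 CPM, a ratio of -0.53 (-0.79 to -0.29), with -0.63 and -0.26 in lanes 1 and 2. For both genes the intervals of neighbouring classes overlapped, and only classes further apart were separate.

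Both ratios kept their sign in all 17 alternatives. In another alternative cells were thinned to 3000 UMIs before they were classed, and cells below that depth were left out. The highest class was then 2 or more Ccr2 UMIs, and its ratios to 0 were -0.45 for Tlr13 and -0.17 for Tlr7. Tlr4 had 20.2, 20.9, 18.5 and 15.4 CPM, and its ratio of -0.37 became 0.18 with thinned cells. Ly96 had 60.8, 52.6, 48.4 and 48.9 CPM, with a ratio of -0.31 and the same sign in all 17 alternatives.

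Cd14 had 144, 152, 140 and 199 CPM, so that only the highest class stood apart from the others. The ratio was 0.46 (0.36 to 0.58), with 0.52 in lane 1 and 0.39 in lane 2, and 0.51 among cells with a C1q share at or above the wild-type median. Tlr2 had 13.3, 15.1, 16.7 and 19.6 CPM, higher at every step in lane 1 but not in lane 2, and 0.53 (0.20 to 0.92) between the ends. With cells thinned to 3000 UMIs and 2 or more Ccr2 UMIs as the highest class, that ratio was 1.12. Among cells with a high C1q share it was 0.16. Both genes were higher in the highest class in all 17 alternatives.

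Among the signalling genes, Myd88 had 52.4, 58.9, 54.6 and 57.7 CPM, and Irak2 53.1, 55.0, 51.5 and 45.6 CPM. The ratio of Irak2 was -0.21 (-0.43 to -0.01), below 0 in all 17 alternatives, with -0.86 at a high immediate-early share and -1.98 in cells of 2000 to 4000 UMIs, where the highest class held 57 cells. Irak3 had 7.35, 9.25, 11 and 10.6 CPM, a ratio of 0.47 (0.03 to 1.02) that lane 1 decided, since it was 0.56 there and -0.0049 in lane 2. Nod2 had 4.03, 5.84, 5.28 and 4.67 CPM, with no difference detectable at this depth.

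**Figure D5:**
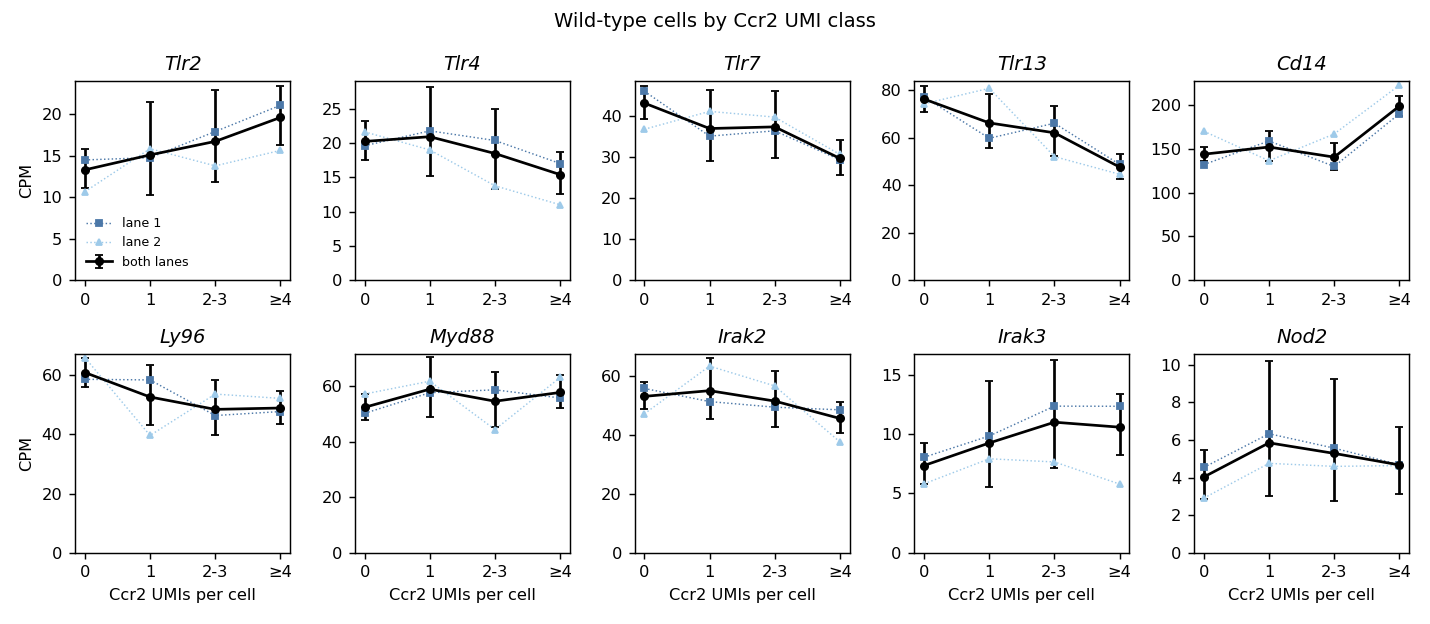
CPM of each gene in wild-type cells with 0, 1, 2 to 3, or 4 or more Ccr2 UMIs, for both lanes together (black, with 95% Poisson intervals as bars) and for lanes 1 and 2 (dotted). Tlr13 goes from 76.3 to 47.6 CPM and Cd14 from 144 to 199 CPM.

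Other cell types moved over the same classes. The summed plasma cell list had 2675 CPM at 0 and 154 CPM at 4 or more, the dendritic list 80.9 and 108 CPM, and the monocyte list, which holds Ccr2 itself, 102 and 1344 CPM with S100a8 and S100a9 at 0 UMIs. The immediate-early list had 6405 and 7506 CPM. Their part in the trends was not tested, but without other-lineage cells the ratios were -0.71 for Tlr13, -0.55 for Tlr7 and 0.43 for Cd14. In cells with 0 UMIs of the dendritic list they were -0.59, -0.52 and 0.39.

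Timd4 and Cd4, surface proteins of long-lived gut macrophages, gave another division of the cells that exists in both genotypes. Cells with a Timd4 UMI, with Cd4 but no Timd4, and with neither numbered 445, 756 and 1815 in wild type and 815, 610 and 1187 in the knockout. Tlr13 had 74.0, 77.0 and 57.3 CPM in these wild-type classes and 90.1, 84.1 and 64.4 CPM in the knockout. Cells with neither marker were lowest in both libraries, and their interval (53.2 to 61.7 in wild type and 55.5 to 74.3 in the knockout) lay below that of Timd4 cells. Cd14 was highest in cells with neither marker, with 115, 153 and 176 CPM in wild type and 170, 178 and 215 CPM in the knockout.

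Within the Timd4 class the intervals of the genotypes lay apart for 6 of the 10 genes, with Tlr2, Cd14, Myd88, Irak2 and Nod2 higher and Ly96 lower in the knockout. The share of all genes with intervals apart was not computed within this class. Over all kept cells it was 42.4% upward and 23.0% downward, so the count is not read as a feature of the set. Tlr2 had 15.9 CPM in wild-type and 30.5 CPM in knockout Timd4 cells, and Ly96 67.3 and 30.2 CPM. Over the classes Ly96 had 67.3, 57.1 and 50.9 CPM in wild type, and 30.2, 26.9 and 35.1 CPM in the knockout, where the intervals overlapped. The median was 6154 UMIs for wild-type and 3014 UMIs for knockout Timd4 cells, against 6119 and 1951 UMIs for cells with neither marker.

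Transcripts of receptor partners rarely met in the same cell at 2000 UMIs per cell. Tlr4 and Ly96 UMIs were found together in 15 of 2868 wild-type cells (0.523%), against 0.480% from the product of their shares. In the knockout they met in 2 of 1595 cells (0.125%, against 0.204%). Tlr2 and Cd14 met in 0.941% of wild-type and 2.45% of knockout cells, where the products gave 0.699% and 1.70%. The pairs of Cd14 with Tlr4 and with Ly96 were below the product in wild type and above it in the knockout. Tlr4 and Cd14 met in 0.732% and 1.63% (products 1.07% and 1.17%), and Ly96 and Cd14 in 2.41% and 1.57% (2.50% and 1.24%). This pattern was not general. Tlr7 and Tlr13 met above the product in both libraries. Myd88 and Irak2 were above it in wild type and below it in the knockout. Across cells no gene reached a Pearson correlation of 0.2 with any of the 10 genes in both libraries, and the closest was C1qb with Cd14, at 0.23 over 3016 wild-type and 0.19 over 2612 knockout cells. These counts are sparse and the cells share libraries, so the values describe these cells and carry no p.

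The wider pathway was described with 62 further genes, of which 50 passed the minimum of 10 CPM. Of these, 11 were at least 2-fold higher in the knockout and 1 was at least 2-fold lower, with a median log2 ratio of 0.40, beside 9.04% higher, 3.12% lower and a median of 0.18 over all genes. The 21 measured genes that had been listed by name as restraint had a median of 0.70 and held 7 of the 11, Nfkbiz among them. That listing does not establish that each of them acts as a restraint. Tnfaip3, the ubiquitin-editing enzyme A20 that ends NF-κB signals, had 59.5 CPM in wild type and 387 CPM in the knockout, a ratio of 2.68. Nfkbiz, encoding an atypical IκB protein, had 230 and 1173 CPM (2.35), and Nfkbia, encoding IκBα, 205 and 764 CPM (1.89).

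Dusp1 (2.73), Zfp36 (1.60) and Atf3 (1.38), which restrain cytokine output, are also on the immediate-early list. That list summed to 6886 CPM in wild type and 25302 CPM in the knockout. The wider pathway was not split by immediate-early share, and the part of that state in its ratios was not tested. The scavenger receptor Cd36 had a ratio of 1.74 and the NF-κB subunit gene Rel 1.47. Of the 10 adaptor and kinase genes past the minimum, 0 differed 2-fold in either direction, and their median was 0.31. Tnip3, a partner of A20, was the 1 gene at least 2-fold lower, with 15.9 CPM in wild type and 7.16 CPM in the knockout (-1.05). Wild-type cells with 0 Ccr2 UMIs had 1.91 CPM of Tnip3, below the knockout, so the direction depended on which wild-type cells were compared.

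Over the Ccr2 classes 47 of these genes passed the minimum, with a median of 0.025 against -0.09 over all genes. At least 2-fold higher were 2 of them and 1 was lower, beside 1.09% and 3.16% of all genes. Tnip3 stood at 1.91 CPM in cells with 0 Ccr2 UMIs and at 38.4 CPM in those with 4 or more, a ratio of 3.76, with 3.81 and 3.63 in lanes 1 and 2. Trem2, a surface receptor that dampens Toll-like receptor responses, had 15.0 and 31.1 CPM, with ratios of 1.08 and 0.88 in lanes 1 and 2. Tlr12, an endosomal receptor for profilin, was the 1 gene at least 2-fold lower, with 251 and 107 CPM (-1.22), and in the knockout it had 302 CPM against 194 CPM in wild type (0.64). Unc93b1, which carries the endosomal receptors to their compartment, had 823 and 695 CPM over the classes (-0.24). The endosomal receptors below the minimum went both ways, with ratios of -0.64 for Tlr3 (-1.26 to -0.19) and 0.93 for Tlr11 (0.39 to 2.06). For Tlr8 the ratio was -0.46 (-1.06 to 0.02) and for Tlr9 0.02 (-1.73 to 1.70), both with intervals that include 0.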

How the data were processed

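Single-cell 3′ v2 libraries (10x Genomics) of 1 wild-type and 1 knockout sample were used. The deposited values are UMI counts by gene and by cell, whole numbers without normalisation. Cell Ranger 3.0.1 and mm10 are named in the submitters' processing notes. How cells were called, and with which annotation, is not given in the sources used here. Genes were matched by symbol, or by Ensembl ID where the symbol differed.

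The 10 genes and all lists were chosen with earlier results of these data known. Cells had to show 200 genes and stay within 10% mitochondrial UMIs, and doublets stayed in, except in an alternative with the highest Scrublet scores removed (scanpy 1.11.5). UMIs were summed per group, scaled to 1000000, and compared as log2(CPM + 1). Sums carry exact 95% Poisson intervals, log2 ratios exact conditional intervals, and shares exact Clopper-Pearson intervals. Scripts (Python 3.11.15) were tested on simulated data. Pathway genes were named where at least 2-fold different, up to 8 by size per direction. Outside this rule, Unc93b1, Tlr3, Tlr8, Tlr9 and Tlr11 were named beside the endosomal receptors of the set. The lymphoid-marker cells had at least 3 lymphoid markers and under 1/3 of the median macrophage-marker share. The kappa B consensus was chosen after the sequences were seen.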

Additional observations from a re-analysis of the deposited data

How the results depend on the processing

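Each comparison was repeated under 17 alternatives, of which those with the macrophage-marker gate or a high immediate-early share were chosen after seeing the data. The count of genes at least 2-fold higher in the knockout, 1 in the report, was 0 with a pseudocount of 10 CPM, with median-of-ratios scaling, and in cells of low or high immediate-early share, with or without the macrophage-marker gate. The count at least 2-fold lower was 1 at a low immediate-early share. The median log2 ratio of 0.30 was 0.11 with median-of-ratios scaling, -0.46 at a low immediate-early share and 0.091 there with the gate. Tlr2 went from 1.11 to -1.17 at a low share and to -0.55 with the gate. Over the Ccr2 classes, cells of 2000 to 4000 UMIs gave 1 gene at least 2-fold higher and 2 lower, with a median of 0.20 in place of -0.26, on 57 cells in the highest class. Thinning to 3000 UMIs, with 2 or more Ccr2 UMIs as the highest class, gave 1 gene higher and a median of 0.0084. At a high immediate-early share 2 genes were at least 2-fold lower, with a median of -0.69. The number of genes with a higher thinned share in the knockout, 8 of 10 at 1000 UMIs, was 7 at 500 and at 2000 UMIs and 0 without thinning. No such count over all genes was made. The causes of these moves were not tested. All other counts of genes past 2-fold were as reported, and all other medians kept their sign. No paired analysis was possible because each genotype is 1 library. Depth limits Irak3 and Nod2 most, with 56 and 70 UMIs in the knockout.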
